A study of Mus musculus with 6 samples.

Results

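The genes described here are p53 and its target genes, a set of 31 named genes found by symbol among the 54532 genes of the deposited count table. All 31 were in the table. They were divided by function into 6 genes of the p53 core and its feedback, 7 of cell cycle arrest and cell division, 11 of apoptosis, and 7 of metabolism and DNA repair. Gene expression was measured by RNA sequencing of messenger RNA in 32D, an interleukin-3-dependent mouse cell line of myeloblast-like type, kept in IMDM with serum and mouse interleukin-3. The cells carried a retroviral vector, MSCV-IRES-GFP, with human U2AF1, a splicing factor that recognises the 3' end of introns. The insert was either mutant U2AF1 S34F (S34F, 3 libraries) or wild-type U2AF1 (WT, 3 libraries). The sample titles read U2af1 S34F and U2af1-WT, with the symbol of the mouse gene. Beyond these titles, the labels name no change to the mouse U2af1 gene of either group. Both groups carried a human insert driven by the virus, so WT is an overexpression control and not untouched cells, and mouse gene counts do not show which allele was inserted. The title of the series speaks of a defect in DNA repair and oxidative stress, and p53 is a main transcriptional responder to DNA damage.

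The p53 protein, encoded by Trp53 in the mouse, is a transcription factor kept scarce in unstressed cells by MDM2, a ubiquitin ligase that marks it for degradation. After DNA damage, ribosomal stress or oncogene activation it accumulates and activates genes that halt the cell cycle, trigger apoptosis, adjust metabolism and, through Mdm2 itself, bring p53 down again. Its activity is set largely at the protein level, which was not measured, so the messenger RNA levels of its targets are what these libraries show.

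Totals lay between 16509899 and 19129250 counts per library. Levels are given in CPM, library-size-scaled counts with TMM factors, where 1 count equalled 0.052 to 0.0608 CPM. WT replicates 2 and 3 were unusually similar. Over 8908 genes the SD of their log2 ratio was 0.12, while other pairs from 1 group gave 0.304 to 0.407. Sampling noise alone did not account for their difference (chi-square 2.3 per degree of freedom), so they were kept as 2 libraries, and calls are also given with both summed. Pairs between the groups gave 0.382 to 0.52, the lowest for S34F replicate 1 and WT replicate 1. By this measure WT replicate 1 was nearer to S34F replicate 1 than to WT replicate 2 (0.407) or WT replicate 3 (0.405). Separate cultures are not named in the labels. The p-values therefore refer to the spread of these libraries, which may be technical. Of 11 markers of immature granulocytes and 32D cells, 8 were high enough to be tested, Csf2rb reached 831 CPM and Cebpa had no count. Elane reached at most 0.324 CPM and Kit at most 0.177 CPM in any library. The macrophage markers summed to 259 to 349 CPM in S34F and 229 to 243 CPM in WT, mostly from Adgre1, while C1qa and C1qb had no count. Within that sum Cd68 had 32.4, 32.2 and 32.0 CPM in S34F replicates 1 to 3, against 19.95, 7.54 and 7.46 CPM in WT replicates 1 to 3. Its log2 fold change of 1.47 did not pass (edgeR adjusted p = 0.0695). T cell, B cell, erythroid, fibroblast, mast cell and mature neutrophil markers summed to at most 19.8 CPM in any library, and 1 of the markers of all these lists together, the granulocyte list's Spi1, passed the test.

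The DNA in front of these genes was searched for the element that p53 binds. A p53 binding site consists of a pair of adjoining decamers with a C and a G at fixed places in each core. In the 250 bases upstream of the RefSeq start sites (GRCm38.p6, the same assembly as mm10), an exact p53 decamer lay in 12 of 35 member promoters (34.3%), against 7.13% of 32851 mouse promoters of the same length. Pairs of adjoining decamers were allowed at most 3 mismatches, with the C and the G of each core in place. The bases between that C and G could mismatch, as in the pairs of Ccng1 and Sesn1 below. Such a pair lay in 9 of 35 member promoters (25.7%), against 1.14% of all promoters. RefSeq promoters were found for 25 of the 31 genes. The decamer reads the same on both strands, so a match on either strand was counted, and an exact decamer can be part of a pair. These shares describe the sequence only, since no binding was measured. The 9 stretches with a pair are shown because they hold the element p53 is known to bind, each on the strand of its gene and with the pair in capitals.
Cdkn1a, chr17:29090908-29090967, plus strand: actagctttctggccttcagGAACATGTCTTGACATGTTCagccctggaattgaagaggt
Ccng1, chr11:40755442-40755501, minus strand: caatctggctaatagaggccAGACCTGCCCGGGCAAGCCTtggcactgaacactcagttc
Rps27l, chr9:66946276-66946335, plus strand: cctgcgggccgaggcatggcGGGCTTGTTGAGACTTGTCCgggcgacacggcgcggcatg
Ckap2, chr8:22185983-22186042, minus strand: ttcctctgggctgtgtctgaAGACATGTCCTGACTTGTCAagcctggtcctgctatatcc
Trp53, chr11:69580264-69580323, plus strand: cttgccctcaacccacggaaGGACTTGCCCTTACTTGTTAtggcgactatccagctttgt
Bbc3, chr7:16309466-16309525, plus strand: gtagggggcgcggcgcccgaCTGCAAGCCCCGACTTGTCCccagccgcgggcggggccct
Aen, chr7:78895932-78895961, plus strand: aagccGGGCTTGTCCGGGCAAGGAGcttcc
Sesn1, chr10:41887246-41887305, plus strand: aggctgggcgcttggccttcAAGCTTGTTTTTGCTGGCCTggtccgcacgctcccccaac
Tigar, chr6:127109726-127109785, minus strand: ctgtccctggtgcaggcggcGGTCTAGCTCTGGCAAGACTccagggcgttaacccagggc

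The pairs of Cdkn1a, Ccng1 and Rps27l had 1 mismatch each and that of Ckap2 had 2, while the other 5 had 3. In GENCODE M21 the pairs of Bbc3, Rps27l and Sesn1 lay in an intron, that of Aen in an exon and the other 5 outside the gene. The Cdkn1a pair stood 51 to 32 bases before an upstream start site, which RefSeq places 2790 bases before the second start site of the gene. None of these 9 genes passed the edgeR test between S34F and WT. Aen, Bbc3, Cdkn1a and Sesn1 had an unadjusted p under 0.05 in edgeR (22% of all genes tested) and were called by DESeq2 (9.04%). Of the 9, limma-voom called Cdkn1a (2.01% of all genes tested). All S34F libraries were above all WT libraries for Cdkn1a, Bbc3, Aen and Ccng1 (14% of all genes tested) and below them for Sesn1 and Ckap2 (13.1%), while the groups overlapped for Trp53, Rps27l and Tigar.

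Across the 27 members that could be tested, the S34F libraries leaned higher, but few differences passed the test. The share of counts from mitochondrial genes separated the groups as well, with 2.02% to 2.14% in S34F and 2.73% to 2.99% in WT, and its part in the results was not tested. Differences are log2 fold changes of S34F over WT with their SE from 3 libraries per group, and p-values come from the quasi-likelihood test of edgeR, adjusted over all 13444 genes tested by the Benjamini-Hochberg method. At an adjusted p under 0.05 Psrc1 rose, no member fell and 26 did not pass, that is 1 of 27, where 2.18% of all genes tested passed. A positive log2 fold change was found in 21 of the 27, against 50.1% of all genes tested, and the median was 0.25 against 0.00 over all genes. Among 25 tested genes that p53 lowers indirectly, described below, 19 were positive as well. An unadjusted p under 0.05 was reached by 10 members (22% of all genes), of which 9 were higher in S34F (11.9% of all genes) and 1 lower (10.1%). The groups did not overlap for 11 members (27.1% of all genes): all 3 S34F libraries lay above all 3 WT libraries for 9 (14%) and below them for 2 (13.1%). The remaining 4 members were Perp, Plk2 and Ddit4l, with no count in any of the 6 libraries, and Phlda3, with 1 count in S34F replicate 2. A count of 0 allows a level of up to 0.156 to 0.182 CPM, depending on the library. In bulk libraries a change in the share of cells and a change in RNA per cell cannot be told apart.

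**Figure D1:**
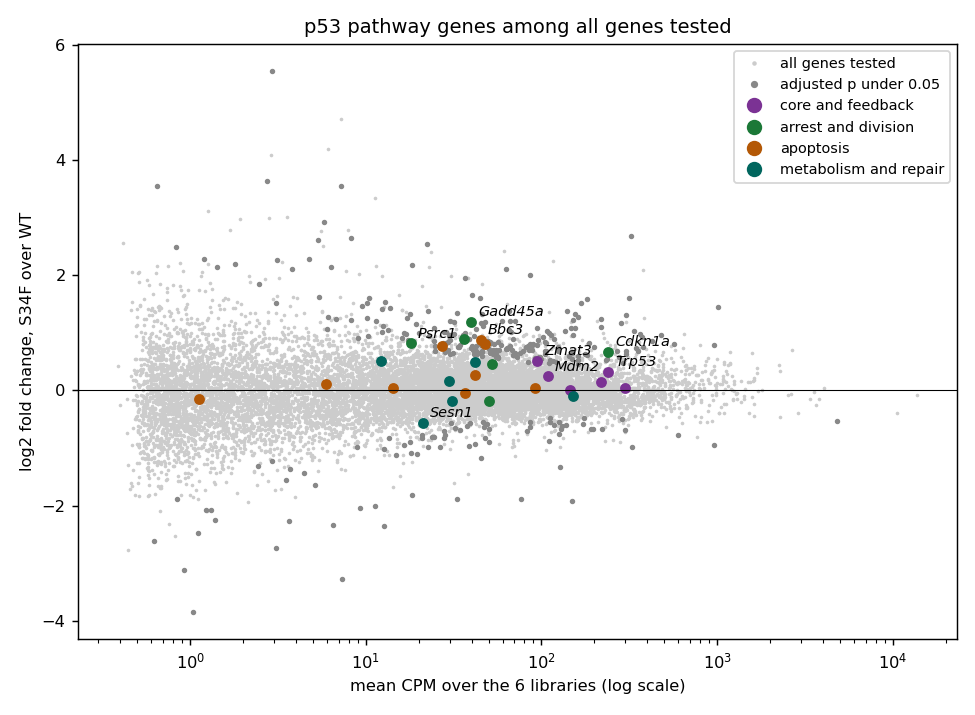
Each point is a gene, placed by its mean CPM over the 6 libraries (horizontal, log scale) and its log2 fold change of S34F over WT (vertical); grey points are all genes tested, darker grey those that passed the test and coloured points the 27 tested p53 pathway genes. The coloured points lie between -0.56 and 1.19, with 21 of them above 0.

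In the core of the pathway Trp53, Mdm2 and Zmat3 had higher means in S34F, Mdm4, Ccng1 and Rps27l had log2 fold changes of 0.02 to 0.15, and none of the 6 genes passed the test. Trp53 (ENSMUSG00000059552, chromosome 11, 69580359 to 69591873, mm10) had 308, 226 and 266 CPM in S34F replicates 1 to 3, against 248, 196 and 193 CPM in WT replicates 1 to 3. The groups overlapped, since WT replicate 1 stood above S34F replicate 2. Its log2 fold change was 0.33 ± 0.15 (SE; edgeR adjusted p = 0.251), or 0.20 without S34F replicate 1. A copy of the gene, Trp53-ps, took 276 counts over all 6 libraries, while Trp53 had 3328 to 5458 per library.

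Mdm2, the ubiquitin ligase that p53 itself induces, had 119, 134 and 101 CPM in S34F replicates 1 to 3, against 102, 99.6 and 95.6 CPM in WT replicates 1 to 3. S34F replicate 3 lay just under WT replicate 1, and the other two S34F libraries were above all WT libraries. For Mdm2 the log2 fold change was 0.25 ± 0.12 (SE; edgeR adjusted p = 0.273), or 0.15 without S34F replicate 2. Mdm4, a relative of MDM2 that binds p53 and blocks its activity, averaged 304 ± 29.1 CPM in S34F and 296 ± 14.8 CPM in WT (SD, n = 3 each). Its groups overlapped, with a log2 fold change of 0.04 ± 0.11 (SE; edgeR adjusted p = 0.887).

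Zmat3, a p53-induced zinc finger protein that binds RNA, gave the clearest separation in this group. It had 106, 109 and 120 CPM in S34F replicates 1 to 3, against 69.6, 83.3 and 80.9 CPM in WT replicates 1 to 3. All S34F libraries were above all WT libraries and replicates were even within each group. Its log2 fold change of 0.51 ± 0.11 (SE) missed the threshold in edgeR (adjusted p = 0.0601). Ccng1, which encodes cyclin G1, a protein that acts on MDM2, averaged 228 ± 7.30 CPM in S34F and 205 ± 23.7 CPM in WT (SD, n = 3 each). Its S34F libraries were all above the WT libraries, but by little, with a log2 fold change of 0.15 ± 0.12 (SE; edgeR adjusted p = 0.473). Without WT replicate 1 it was 0.07, and with the GC trend removed 0.32 (edgeR adjusted p = 0.143). Rps27l, a p53-induced relative of the ribosomal protein gene Rps27, averaged 145 ± 24.7 CPM in S34F and 144 ± 22.3 CPM in WT. Its values are uncertain as far as the counting could divide reads between the 2 paralogues. Of the 6 core and feedback genes edgeR called 0 (2.18% of all genes tested), with 1 at an unadjusted p under 0.05 (22%). DESeq2 called Zmat3 (9.04% of all genes tested) and limma-voom called none (2.01%).

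Per kilobase of annotated exon the most abundant members were Rps27l, Cdkn1a, Trp53 and Ccng1. Rps27l reached 178 CPM per kilobase in S34F and 176 in WT. Cdkn1a had 82.9 in S34F and 52.1 in WT, Trp53 65.9 in S34F and 52.5 in WT, and Ccng1 65.1 in S34F and 58.5 in WT. The lowest tested member was Eda2r, at 0.181 CPM per kilobase in S34F and 0.202 in WT. Trp53, Mdm2, Mdm4 and Cdkn1a each had over 1000 counts in every library.

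The genes of arrest and division showed the largest differences. Cdkn1a, which encodes p21, the inhibitor of cyclin-dependent kinases through which p53 halts the cell cycle, had 299, 302 and 282 CPM in S34F replicates 1 to 3, against 225, 165 and 164 CPM in WT replicates 1 to 3. The S34F libraries were even and all above the WT libraries, of which WT replicate 1 was the highest. S34F stood above WT by a log2 fold change of 0.67 ± 0.14 (SE), a ratio of 1.59, which missed the threshold in edgeR by a small margin (adjusted p = 0.0532). Over the 16 other ways of processing the libraries its adjusted p lay between 0.00153 and 0.245, with 5 calls. The gene lies on chromosome 17 from 29090976 to 29100727 (ENSMUSG00000023067, mm10).

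Psrc1, whose product binds microtubules of the mitotic spindle, was the member that rose. It had 21.2, 24.6 and 23.2 CPM in S34F replicates 1 to 3, against 10.5, 14.2 and 14.5 CPM in WT replicates 1 to 3. The groups were well apart, and the lowest S34F library was above the highest WT library. Psrc1 averaged 23.0 ± 1.73 CPM in S34F and 13.1 ± 2.25 CPM in WT (SD, n = 3 each), a log2 fold change of 0.82 ± 0.17 (SE) and a ratio of 1.76, with an edgeR adjusted p of 0.0497, at the edge of the threshold. Its log2 fold change stayed between 0.69 and 0.90 over the 16 alternatives and the gene passed in 7 of them. It did not pass with WT replicates 2 and 3 summed (adjusted p = 0.166), with the GC trend removed (adjusted p = 0.0768), with upper-quartile factors (adjusted p = 0.0608), with library totals alone (adjusted p = 0.0723), or without S34F replicate 1, 2 or 3 or WT replicate 2 or 3, where the adjusted p lay between 0.0808 and 0.167. Psrc1 lies on chromosome 3 from 108383839 to 108388231 (ENSMUSG00000068744, mm10).

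Gtse1, a microtubule-binding protein of the G2 phase that restrains p53, and Ckap2, a spindle protein, are the other division genes of the set. Gtse1 had 61.6, 57.1 and 63.0 CPM in S34F replicates 1 to 3, against 50.8, 38.6 and 42.0 CPM in WT replicates 1 to 3. Its S34F libraries were all above the WT libraries, with a log2 fold change of 0.47 ± 0.13 (SE; edgeR adjusted p = 0.0961). Ckap2 had 43.8, 48.8 and 49.6 CPM in S34F replicates 1 to 3, against 49.8, 54.1 and 57.2 CPM in WT replicates 1 to 3. Its S34F libraries were all below the WT libraries by a narrow margin, with a log2 fold change of -0.18 ± 0.11 (SE; edgeR adjusted p = 0.385). Psrc1 and Gtse1 thus stood on one side of WT and Ckap2 on the other.

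Promoters of mitotic genes often carry a CCAAT box, bound by the factor NF-Y, and the element TTTGAA, bound by the complex that represses them through p21. Both were searched on either strand in the same 250 bases. CCAAT lay in 20 of 35 member promoters (57.1%), against 33.8% of all promoters, and TTTGAA in 3 of 35 (8.57%), against 16%. Psrc1 and Gtse1 had CCAAT and no TTTGAA in this window, and Ckap2 had both. The stretches around CCAAT in Psrc1 and Gtse1 are shown because these were the division genes with higher levels in S34F, with the box in capitals.
Psrc1, chr3:108383743-108383787, plus strand: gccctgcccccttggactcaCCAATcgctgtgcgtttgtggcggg
Gtse1, chr15:85859588-85859632, plus strand: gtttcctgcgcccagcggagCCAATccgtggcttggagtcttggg

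Gadd45a and Btg2 were the most uneven members of the arrest group. Gadd45a, a stress-induced protein of growth arrest and repair, had 49.1, 73.7 and 42.1 CPM in S34F replicates 1 to 3, against 41.8, 15.6 and 14.9 CPM in WT replicates 1 to 3. WT replicate 1 nearly reached S34F replicate 3, and the other two WT libraries were far lower. For Gadd45a the log2 fold change was 1.19 ± 0.39 (SE; edgeR adjusted p = 0.135), the largest of all tested members, and 1.85 without WT replicate 1, where it passed (adjusted p = 0.0108). The opposite-strand transcript E230016M11Rik covers 19.1% of the exon bases of Gadd45a and had 485 counts over the 6 libraries, against 4222 for Gadd45a, and the strand setting of the counting was not known. Smaller opposite-strand overlaps touch Cdkn1a (7.68% of its exon bases), Rrm2b (8.04%), Dglucy (8.13%), Ei24 (6.66%) and Tigar (3.34%), with at most 313 counts in the partner over the 6 libraries.

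Btg2, an antiproliferative protein that recruits the deadenylase of messenger RNAs, had 49.9, 68.8 and 23.0 CPM in S34F replicates 1 to 3, against 39.5, 18.1 and 19.1 CPM in WT replicates 1 to 3. S34F replicate 3 lay among the WT libraries and WT replicate 1 above it. Its log2 fold change was 0.89 ± 0.41 (SE; edgeR adjusted p = 0.248), or 0.51 without S34F replicate 2 and 1.35 without WT replicate 1. Of the 6 tested genes of arrest and division, 1 rose (1.58% of all genes tested) and 5 did not pass, with a median log2 fold change of 0.74. DESeq2 called Cdkn1a, Gadd45a, Gtse1 and Psrc1, all higher, where it called 9.04% of all genes tested in either direction.

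**Figure D2:**
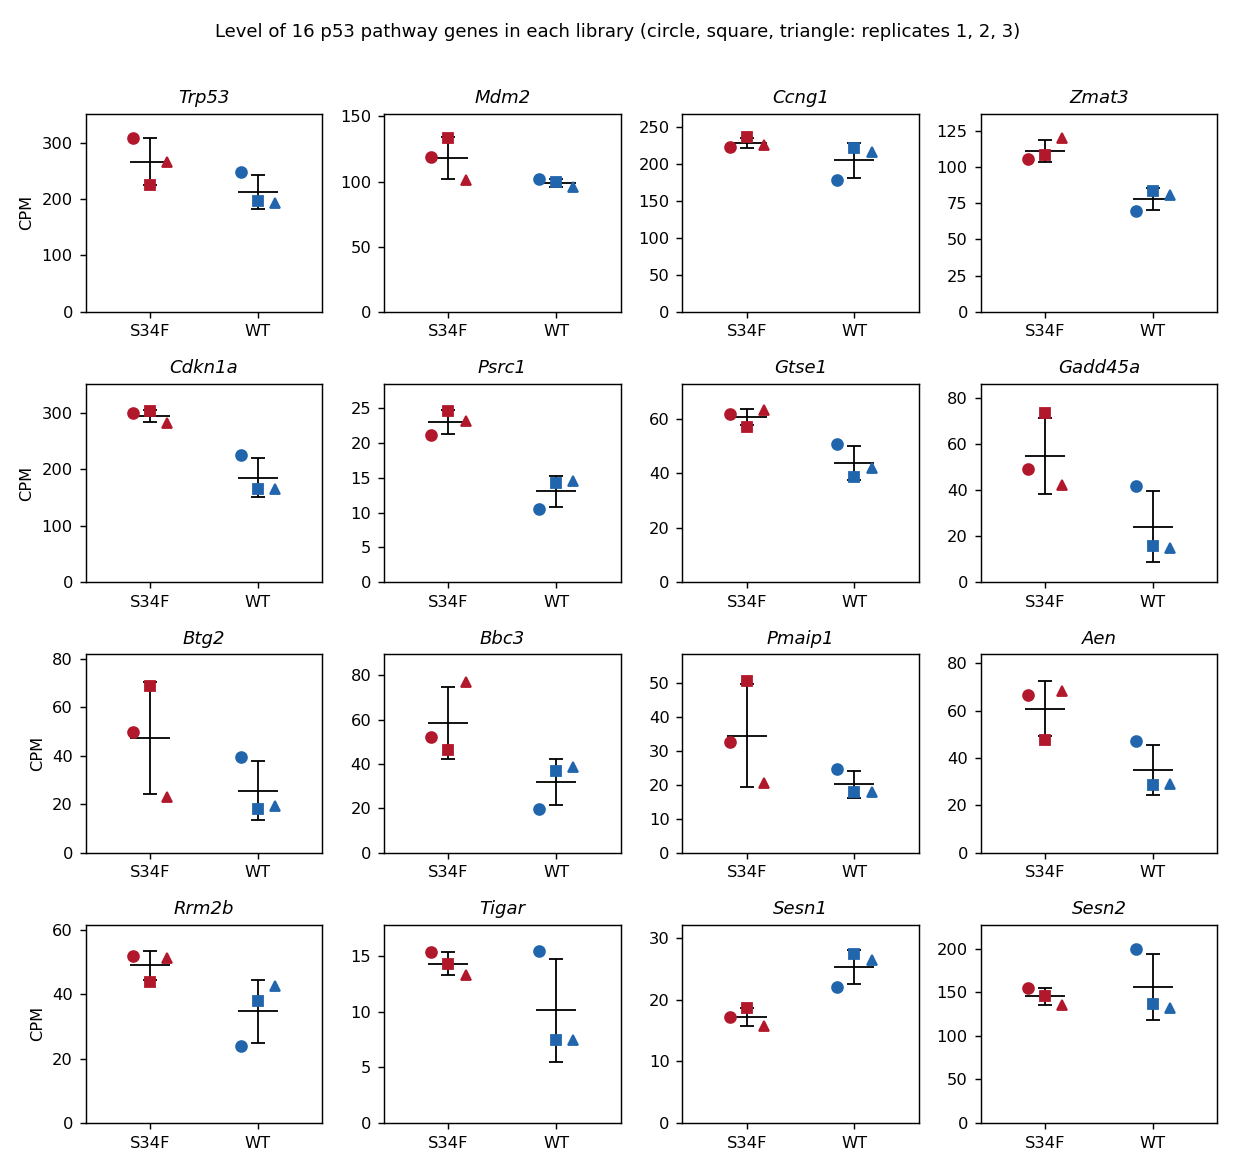
Each panel gives the level of a gene in CPM (vertical axis from 0) in the 3 S34F libraries (red, left) and the 3 WT libraries (blue, right), with circles, squares and triangles for replicates 1, 2 and 3 and black bars for the mean and SD. Zmat3, Cdkn1a, Psrc1 and Gtse1 have even S34F libraries above all WT libraries, while Gadd45a, Btg2 and Tigar have WT replicate 1 apart from WT replicates 2 and 3.

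Among the apoptosis genes, Bbc3, Pmaip1 and Aen had higher means in S34F and the death receptor genes had overlapping groups. Bbc3, which encodes PUMA, a BH3-only protein that frees the mitochondrial death machinery, had 52.2, 46.4 and 77.0 CPM in S34F replicates 1 to 3, against 19.8, 36.6 and 38.8 CPM in WT replicates 1 to 3. All S34F libraries were above all WT libraries, and WT replicate 1 was the lowest of the 6. For Bbc3 the log2 fold change was 0.88 ± 0.27 (SE; edgeR adjusted p = 0.115). Its transcript was 65.2% G and C, the highest of the tested members, and its log2 fold change was 0.61 once the GC trend was removed (edgeR adjusted p = 0.305).

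Pmaip1, which encodes NOXA, a second BH3-only protein, had 32.4, 50.4 and 20.4 CPM in S34F replicates 1 to 3, against 24.8, 17.8 and 17.7 CPM in WT replicates 1 to 3. S34F replicate 2 was the highest by far, and S34F replicate 3 lay below WT replicate 1. Its log2 fold change was 0.78 ± 0.30 (SE; edgeR adjusted p = 0.178) and 0.40 without S34F replicate 2. Aen, a p53-induced nuclease of apoptotic cells, had 66.6, 47.4 and 68.3 CPM in S34F replicates 1 to 3, against 47.1, 28.5 and 29.1 CPM in WT replicates 1 to 3. S34F replicate 2 was barely above WT replicate 1, and the groups did not overlap. For Aen the log2 fold change was 0.80 ± 0.22 (SE; edgeR adjusted p = 0.0962).

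The receptors of extrinsic apoptosis were low in all libraries. Fas, the death receptor, had 3.89, 9.72 and 4.96 CPM in S34F replicates 1 to 3, against 4.44, 6.19 and 6.60 CPM in WT replicates 1 to 3. S34F replicate 2 was the highest and the other two S34F libraries were within or below the WT range, so that the log2 fold change of 0.11 ± 0.35 became -0.37 without S34F replicate 2. Tnfrsf10b, the mouse receptor of TRAIL, averaged 14.5 ± 0.454 CPM in S34F and 14.0 ± 1.46 CPM in WT (SD, n = 3 each). Eda2r, a receptor of ectodysplasin A2, had 15, 28 and 15 counts in S34F replicates 1 to 3, against 24, 24 and 13 counts in WT replicates 1 to 3, which makes its log2 fold change of -0.15 ± 0.41 (SE; edgeR adjusted p = 0.868) imprecise.

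Trp53inp1, a p53-induced cofactor of autophagy and cell death, had 31.5, 62.6 and 43.1 CPM in S34F replicates 1 to 3, against 23.1, 44.0 and 46.1 CPM in WT replicates 1 to 3. The groups overlapped widely, with WT replicate 1 the lowest and S34F replicate 2 the highest, and the log2 fold change of 0.28 ± 0.30 was -0.01 without S34F replicate 2. Pidd1, the scaffold that activates caspase-2, averaged 35.9 ± 5.42 CPM in S34F and 37.0 ± 5.74 CPM in WT, and Ei24, a protein of the endoplasmic reticulum, 93.2 ± 4.47 CPM in S34F and 90.7 ± 4.41 CPM in WT (SD, n = 3 each). Of the 9 tested apoptosis genes edgeR called 0 (2.18% of all genes tested), with 3 at an unadjusted p under 0.05 (22%). DESeq2 called Aen and Bbc3 (9.04% of all genes tested) and limma-voom called none (2.01%). The median log2 fold change of the 9 was 0.11. Bax, the pore-forming protein that PUMA and NOXA set free, is given with the other target genes.

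The metabolism and repair genes were split in direction. Sesn1, a sestrin that restrains the growth kinase mTORC1, had 17.1, 18.6 and 15.7 CPM in S34F replicates 1 to 3, against 22.1, 27.3 and 26.4 CPM in WT replicates 1 to 3. All S34F libraries were below all WT libraries, and no other member had a lower log2 fold change, at -0.56 ± 0.15 (SE; edgeR adjusted p = 0.0864). Sesn2, the leucine-sensing sestrin, had 155, 146 and 135 CPM in S34F replicates 1 to 3, against 199, 136 and 132 CPM in WT replicates 1 to 3. WT replicate 1 stood above all other libraries and the rest were alike, with a log2 fold change of -0.10 ± 0.17 (SE; edgeR adjusted p = 0.760).

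Rrm2b, the p53-induced subunit of ribonucleotide reductase that supplies nucleotides for repair, had 51.9, 43.9 and 51.4 CPM in S34F replicates 1 to 3, against 23.8, 37.9 and 42.6 CPM in WT replicates 1 to 3. The groups did not overlap, but S34F replicate 2 was close to WT replicate 3 and WT replicate 1 was the lowest. For Rrm2b the log2 fold change was 0.50 ± 0.20 (SE; edgeR adjusted p = 0.199) and 0.29 without WT replicate 1. Tigar, a phosphatase that lowers glycolytic flux, had 15.3, 14.2 and 13.3 CPM in S34F replicates 1 to 3, against 15.4, 7.42 and 7.46 CPM in WT replicates 1 to 3. WT replicate 1 was as high as the S34F libraries, and without it the log2 fold change was 0.95 and passed (adjusted p = 0.0257), against 0.51 ± 0.29 (SE, edgeR adjusted p = 0.339) with all 6 libraries.

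Polk, a translesion DNA polymerase, averaged 29.1 ± 5.43 CPM in S34F and 32.9 ± 5.23 CPM in WT, and Dglucy, the D-glutamate cyclase of mitochondria, 31.6 ± 2.29 CPM in S34F and 28.1 ± 2.33 CPM in WT (SD, n = 3 each). The groups of both genes overlapped, with edgeR adjusted p-values of 0.605 for Polk and 0.474 for Dglucy. Of the 6 tested genes of metabolism and repair edgeR called 0 (2.18% of all genes tested). At an unadjusted p under 0.05, 1 was higher (11.9% of all genes tested) and 1 lower (10.1%). DESeq2 called Sesn1, lower (9.04% of all genes tested called in either direction), and limma-voom called none (2.01%).

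**Figure D3:**
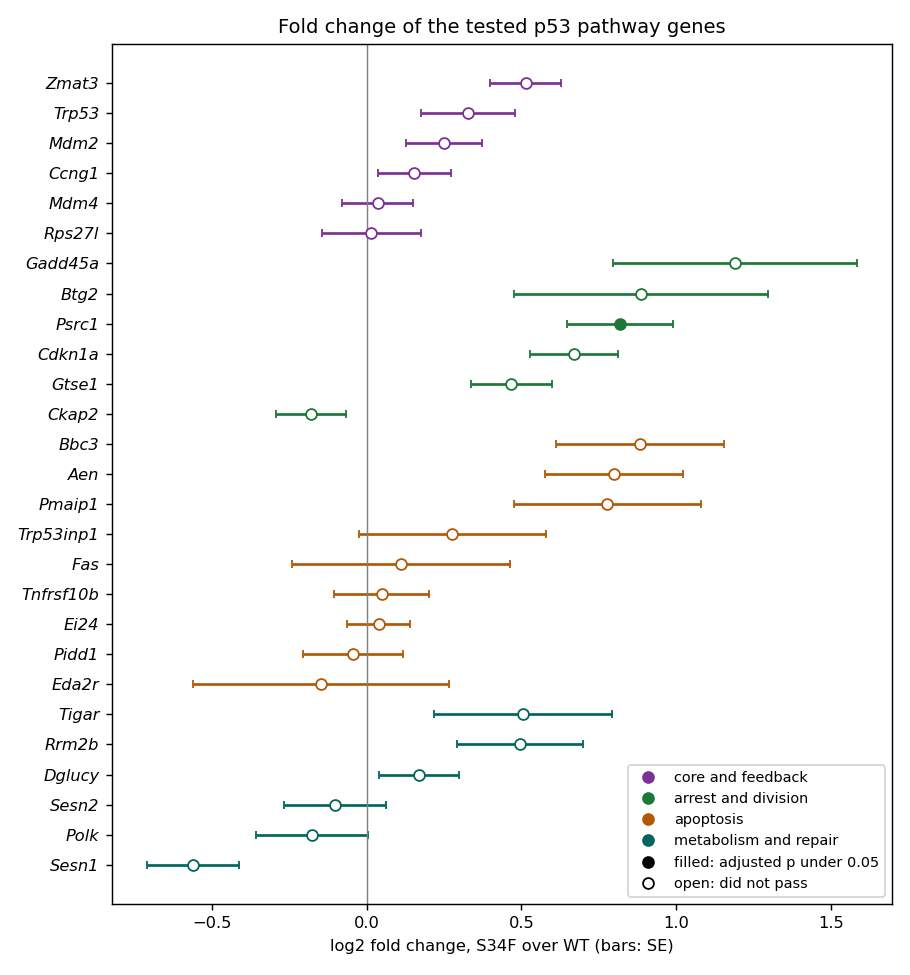
Points give the log2 fold change of S34F over WT of the 27 tested genes (horizontal axis), grouped and coloured by function, with bars of 1 SE; the filled point passed the test. Gadd45a, at 1.19, stands highest with a wide bar, Psrc1, at 0.82, is the filled point, and Sesn1, at -0.56, stands lowest.

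The members fell into different patterns among the libraries of a group. In WT replicate 1, 5 of the 27 tested members were above the mean of WT replicates 2 and 3 by more than 0.5 on the log2 scale, namely Gadd45a by 1.44, Btg2 by 1.08, Tigar by 1.02, Aen by 0.71 and Sesn2 by 0.57. Another 4 were below it by more than 0.5, namely Trp53inp1 at -0.96, Bbc3 at -0.92, Rrm2b at -0.75 and Fas at -0.50. The S34F mean was above WT replicate 1 for 19 members and above the mean of WT replicates 2 and 3 for 21. Among the S34F libraries, replicate 2 was the highest for 13 members, replicate 3 for 9 and replicate 1 for 5. Shares of all genes were not computed for these counts, so they cannot be called particular to the members. Over 8908 genes WT replicate 1 also differed from WT replicates 2 and 3, with SDs of the log2 ratio of 0.407 and 0.405. Averaged over the 27 members, the log2 distance from the mean of the WT libraries was 0.263, 0.415 and 0.25 in S34F replicates 1 to 3, against 0.063, -0.037 and -0.025 in WT replicates 1 to 3.

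Gadd45a and Btg2 are also known as immediate-early genes, which respond within a short time to growth factors and to handling. For 12 tested immediate-early and heat-shock genes the same mean distance was 0.798, 1.487 and 0.305 in S34F replicates 1 to 3, against 1.125, -0.681 and -0.444 in WT replicates 1 to 3. S34F replicate 2 and WT replicate 1 were thus the highest in this list, as they were in their own group for Gadd45a, Btg2 and Pmaip1. Cdkn1a, Mdm2, Pidd1 and Eda2r also had these libraries highest in each group. Klf6 and Jund, both transcription factor genes, rose, 2 of the 12, where 1.58% of all genes tested rose, and the median log2 fold change of the 12 was 0.81. Klf6 had 200, 213 and 220 CPM in S34F replicates 1 to 3, against 137, 77.3 and 83.6 CPM in WT replicates 1 to 3 (edgeR adjusted p = 0.0387), and Jund rose with an edgeR adjusted p of 0.0492. None of the 7 calls in the lists set beside the members passed with WT replicates 2 and 3 summed or without S34F replicate 1, WT replicate 2 or WT replicate 3, and 3 of them at most passed with the GC trend removed. Fos, the gene that defines such responses, had 4.51, 17.4 and 2.09 CPM in S34F replicates 1 to 3, against 8.39, 1.94 and 2.76 CPM in WT replicates 1 to 3. The part of this list in the levels of Gadd45a, Btg2, Pmaip1 or any other member was not tested.

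Bbc3, Pmaip1, Gadd45a and Sesn2 are also known as targets of the integrated stress response, through ATF4 and CHOP. Of 12 tested genes of that response, 3 rose (1.58% of all genes tested) and none fell (0.595%), with a median log2 fold change of 0.59 over the 12. The list was not uniform. Log2 fold changes were above 0 for 10 of the 12 and below 0 for 2, Psat1 (-0.20) and Slc7a11 (-0.16), while Asns stood at 0.07. Trib3, an ATF4 target whose product is a pseudokinase, had 348, 350 and 484 CPM in S34F replicates 1 to 3, against 141, 190 and 192 CPM in WT replicates 1 to 3 (edgeR adjusted p = 0.0221). Ppp1r15a, which lets translation resume after stress, rose to 2.12 times its WT level (edgeR adjusted p = 0.0216), and Cebpb, a transcription factor gene, to 2.13 times (edgeR adjusted p = 0.0438). Ddit3, which encodes CHOP, had 40.0, 83.5 and 79.3 CPM in S34F replicates 1 to 3, against 27.6, 37.3 and 37.2 CPM in WT replicates 1 to 3, and its log2 fold change of 0.99 ± 0.26 did not pass (SE; edgeR adjusted p = 0.0874). Averaged over the 12 genes, the log2 distance from the mean of the WT libraries came to 0.593, 0.583 and 0.416 in S34F replicates 1 to 3, against 0.047, -0.032 and -0.014 in WT replicates 1 to 3. Its part in the levels of the shared targets was not tested.

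**Figure D4:**
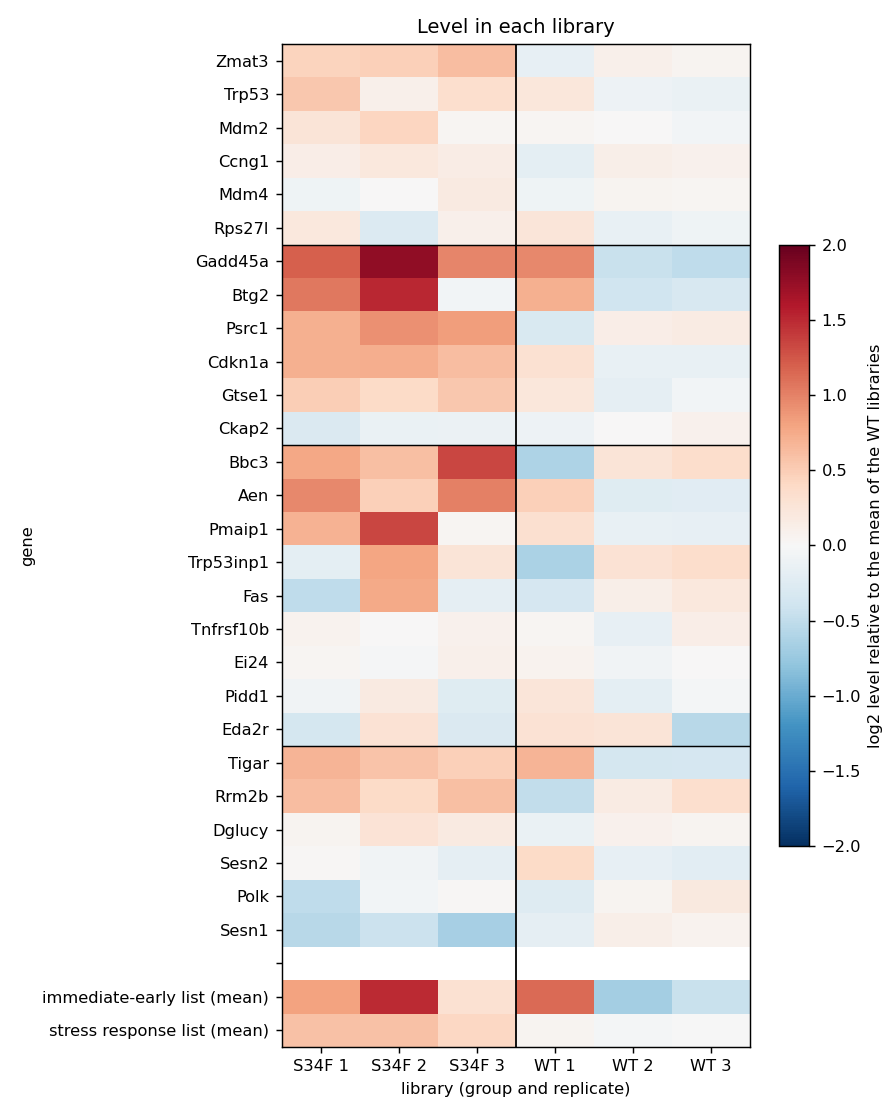
Rows are the 27 tested genes ordered by function and fold change, with the means of the immediate-early and of the integrated stress response lists at the bottom; columns are the libraries, S34F left of WT; colour is the log2 level relative to the mean of the WT libraries. Zmat3, Psrc1 and Cdkn1a are red in all S34F columns, and WT replicate 1 is red for Gadd45a, Btg2 and Tigar and blue for Bbc3, Trp53inp1 and Rrm2b.

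Upstream of p53, most kinases and cofactors that activate it had lower means in S34F. Of 15 tested genes, 1 fell (0.595% of all genes tested fell), none rose and 14 did not pass. Log2 fold changes were below 0 for 13 of them (median -0.14) and above 0 for 2 (13.3%, against 50.1% of all genes tested). At an unadjusted p under 0.05 in edgeR, 3 were lower (10.1% of all genes tested) and 0 higher (11.9%). Atm, a kinase that reports DNA breaks to p53, fell to 104 ± 7.61 CPM in S34F, against 160 ± 7.26 CPM in WT (SD, n = 3 each, edgeR adjusted p = 0.0286). It did not pass with the GC trend removed. DESeq2 called Atm and Chek1, both lower, where it called 9.04% of all genes tested, and limma-voom called Atm (2.01%). Cdkn2a, the gene of the MDM2 inhibitor p19ARF, had no count in any of the 6 libraries. Of 12 tested inhibitors and modifiers of p53 edgeR called 0 (2.18% of all genes tested), with 2 at an unadjusted p under 0.05 (22%). DESeq2 called Ppp1r13l and Ube4b (9.04% of all genes tested) and limma-voom called none (2.01%). The smallest p was that of Ube4b, a ubiquitin ligase that acts on p53, with a log2 fold change of -0.36 ± 0.10 (SE; edgeR adjusted p = 0.0953).

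Of 32 tested p53 target genes outside the 31, Bax rose, none fell and 31 did not pass in edgeR. That share of calls was near that of all genes tested (2.18%), and the median log2 fold change was 0.09. DESeq2 called Bax, Dram1 and Slc19a2 higher and Casp1 and Pml lower, where it called 9.04% of all genes tested. By limma-voom Bax was called (2.01% of all genes tested). Bax, the effector that permeabilises the outer mitochondrial membrane, had 124, 103 and 108 CPM in S34F replicates 1 to 3, against 72.1, 62.3 and 59.8 CPM in WT replicates 1 to 3. All S34F libraries were above all WT libraries, with a ratio of 1.72 (edgeR adjusted p = 0.0257), which did not pass with WT replicates 2 and 3 summed or with the GC trend removed. Gdf15, a secreted p53 target, was near the counting limit, with 19, 24 and 8 counts in S34F replicates 1 to 3, against 3, 10 and 2 counts in WT replicates 1 to 3. Its groups overlapped, and the difference did not pass (edgeR adjusted p = 0.177).

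Genes that p53 lowers indirectly, through p21 and the DREAM repressor complex, are mostly genes of mitosis and replication. Of 25 tested, edgeR called 0 (2.18% of all genes tested). At an unadjusted p under 0.05 in edgeR, 4 were higher in S34F (11.9% of all genes tested) and 2 lower (10.1%), shares near those of all genes. DESeq2 called none (9.04% of all genes tested), and neither did limma-voom (2.01%). The log2 fold changes lay between -0.45 and 0.44 with a median of 0.12. They were positive for 19 of the 25 (76%), against 77.8% of the tested p53 members and 50.1% of all genes tested. Aurka, a mitotic kinase, had 77.9, 83.9 and 99.8 CPM in S34F replicates 1 to 3, against 63.4, 67.2 and 69.4 CPM in WT replicates 1 to 3, with the smallest p of the list (edgeR adjusted p = 0.120). Mki67, a marker of cycling cells, had 739.7, 1051 and 1068 CPM in S34F replicates 1 to 3, against 1166, 1270 and 1300 CPM in WT replicates 1 to 3, with all S34F libraries lower (edgeR adjusted p = 0.197).

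The number of members that passed depended on the test and on single libraries. It was 8 by DESeq2, where 9.04% of all genes tested passed, and 2 by limma-voom, where 2.01% did. Other scalings gave 1 with RLE factors (2.13% of all genes), 0 with upper-quartile factors (1.79%) and 0 with library totals alone (1.7%). Without a count filter 3 members passed (3.12%), and with a filter at 1 CPM 1 did (2.32%). It was 0 with WT replicates 2 and 3 summed (0.145% of all genes) and 0 with the GC trend removed (1.21%). Without WT replicate 1 it was 8 (8.51%), namely Aen, Cdkn1a, Gadd45a, Gtse1, Psrc1, Sesn1, Tigar and Zmat3. No member passed without S34F replicate 1 (0.145%), S34F replicate 2 (2.46%), S34F replicate 3 (0.362%), WT replicate 2 (0.138%) or WT replicate 3 (0.16%). The median log2 fold change of the 27 members stayed positive in all 16 alternatives, between 0.15 without S34F replicate 2 and 0.32 without S34F replicate 3, while that of all genes lay between -0.03 and 0.01.

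**Figure D5:**
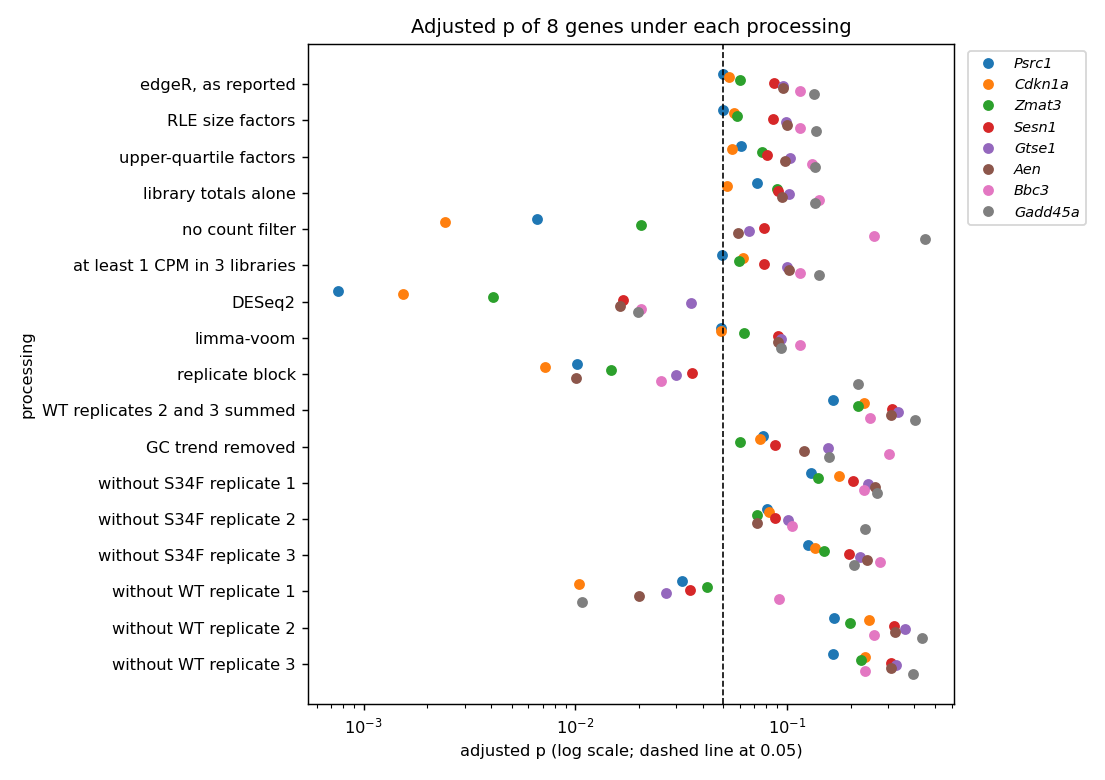
Points give the adjusted p (horizontal axis, log scale) of 8 genes under the reported edgeR test and the 16 alternatives listed down the page, with a dashed line at 0.05. Under the reported test Psrc1 lies on the line at 0.0497 and Cdkn1a at 0.0532, all 8 lie left of the line by DESeq2, and none does with WT replicates 2 and 3 summed.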

How the data were processed

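Messenger RNA libraries (3 S34F, 3 WT) came from a directional kit, per the labels' protocols. The authors deposited counts of reads per gene as whole numbers. The submitters' processing notes name HISAT2, featureCounts and mm10. No source used here gives their versions, the annotation release, the strand setting or the handling of multi-mapped reads. Columns were matched to samples by name, and 27 date-like symbols were restored by gene ID. Positions, exon lengths and GC content came from GENCODE M21, in which 54495 IDs with 99.987% of the counts were found.

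All genes were fitted together in edgeR 4.0.16 (R 4.3.3) after filterByExpr and TMM, by robust glmQLFit and two-sided glmQLFTest with Benjamini-Hochberg adjustment, a threshold of 0.05, genotype as the only term and 4 residual degrees of freedom. SE is the log2 fold change over the root of F. The 16 alternatives were other scalings (RLE, upper-quartile, library totals), other filters (none, or 1 CPM in 3 libraries), other tests (DESeq2 1.42.0, and voom in limma 3.58.1), a replicate-number block, WT replicates 2 and 3 summed, removal of a loess trend of GC content (span 0.5) in each library, and omission of each library. Levels of lists are means of log2(CPM + 0.25).

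Values per library are given by rule for members past the test, the 6 with the smallest p, Trp53, Mdm2, Cdkn1a, and members uneven within a group by more than 2-fold. From the lists set beside them came genes past the test, or else the smallest p. Members shown per library outside the rule (Bbc3, Rrm2b, Sesn2 and Ckap2) were chosen after their values were seen. So were Cdkn2a, Gdf15, Mki67, Ddit3, Fos, Adgre1, Cd68, Elane, Kit and Csf2rb. The members and lists were chosen with earlier results of these data known. On simulated counts of 13444 genes (200 changed), edgeR found 16.4% of the 1.5-fold changes, 61.2% of the 2-fold changes and 89.4% of the 4-fold changes. Floors cover counting error only. Figures were drawn with matplotlib 3.10.9.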

Additional observations from a re-analysis of the deposited data

How the results depend on the processing

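Counts of calls changed with most alternatives. The reported test called 293 genes, 1 of the p53 members and 7 genes of the other pathway lists. For all genes the count was 763 without a count filter, 1216 by DESeq2, 20 with WT replicates 2 and 3 summed and 163 with the GC trend removed, and between 19 and 1177 with a library left out. For the p53 members it was 0 with upper-quartile factors, with library totals alone, with WT replicates 2 and 3 summed and with the GC trend removed, 3 without a count filter, 8 by DESeq2, 2 by limma-voom, and between 0 and 8 with a library left out. For the other pathway lists it was 12 without a count filter, 18 by DESeq2, 0 with WT replicates 2 and 3 summed, 3 with the GC trend removed, and between 0 and 24 with a library left out.

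With the replicate number as a block, 1418 genes (10.5% of those tested), 7 p53 members and 23 genes of the other lists passed. The numbers do not pair the libraries by the labels. Deviations from the group means correlated at 0.332, 0.159 and 0.072 between libraries with the same number. Between libraries with different numbers the correlations ran from -0.2585 to 0.153. S34F replicate 3 correlated at 0.080 with WT replicate 2 and at 0.072 with WT replicate 3. Because WT replicates 2 and 3 were so similar, these values cannot tell which of them would be its partner.

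Single members changed sign, and not all of them were near 0. Trp53inp1, at 0.28 in the reported test, was below 0 only without S34F replicate 2. Rps27l had a log2 fold change of -0.015 with upper-quartile factors, -0.017 with library totals alone and -0.049 with WT replicates 2 and 3 summed, and between -0.097 and 0.156 over all alternatives. Eda2r was at 0.003 with the GC trend removed. With a library left out, the log2 fold change lay between -0.015 and 0.481 for Trp53inp1, -0.374 and 0.351 for Fas, -0.040 and 0.088 for Mdm4, -0.164 and 0.088 for Pidd1, -0.209 and 0.119 for Sesn2, -0.441 and 0.027 for Eda2r, -0.035 and 0.117 for Tnfrsf10b, and -0.002 and 0.078 for Ei24. The cause was not tested. Among all values of single members under the alternatives, 381 kept direction and call, 23 gained a call, 9 lost it and 19 changed sign. With 3 libraries per group, 16.4% of the simulated 1.5-fold changes were called.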
